A study of Mus musculus with 6 samples.

Results

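Type I interferon-stimulated genes were followed through 28 days of angiotensin II (Ang II) infusion in mouse heart. The set held 10 genes, Ifit1, Ifit2, Ifit3, Isg15, Rtp4, Ifi44, Usp18, Oasl2, Rsad2 and Ddx58. They and the lists below were chosen by name with earlier results of these data known. Shares of all tested genes set beside their counts are therefore a description, not a test of the set. Each symbol of the set matched 1 row of the 22556 in the deposited table. Hearts came from WT mice, with no genetic change named for any group, and Ang II, a peptide hormone that raises blood pressure, was given under the skin by osmotic pump. The 3 groups were controls listed at 0 days, mice infused for 7 days and mice infused for 28 days at 1000 ng per kg per min, with 2 libraries each. The labels do not say whether control mice carried a pump with vehicle, give neither age nor sex, and do not say that each library was a separate mouse, so p-values measure only the spread between these libraries, which may be technical. In whole heart tissue, fewer cells of a type and less RNA per cell cannot be told apart.

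Type I interferons are secreted when a cell senses foreign or displaced nucleic acid. They bind the receptor IFNAR, whose kinases Jak1 and Tyk2 lead to the assembly of ISGF3, a complex that contains Stat2 and Irf9. ISGF3 binds the interferon-stimulated response element in promoters and switches on a battery of antiviral genes, which many cells also transcribe at a low steady level without infection.

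Promoters of several members carry the core of this element. RefSeq windows on GRCm38.p6, from 250 bases before to 50 after the start site, were at hand for 8 of the 10 genes (1 gene has 2 windows). The core of the response element, spelled GAAA, any 2 bases and GAAA again, was searched on both strands, and overlapping matches were counted. It occurred in windows of 5 of these 8 genes, Ddx58, Isg15, Rsad2, Ifit3 and Ifit1, against 299 of 7884 tested genes matched by symbol (3.79%) and 3.44% of all 32851 windows. The shorter motif TTCNNNGAA, the gamma-activated site, occurred in 1 of the 8, Ifit2, against 8.11% of the matched tested genes. A match describes the letters only and is not evidence of binding. The 4 windows below are shown because they carry the core at different places and strands, with every match in capitals, read 5′ to 3′ on the strand of the gene.
Isg15, chr4:156200769-156201068, minus strand: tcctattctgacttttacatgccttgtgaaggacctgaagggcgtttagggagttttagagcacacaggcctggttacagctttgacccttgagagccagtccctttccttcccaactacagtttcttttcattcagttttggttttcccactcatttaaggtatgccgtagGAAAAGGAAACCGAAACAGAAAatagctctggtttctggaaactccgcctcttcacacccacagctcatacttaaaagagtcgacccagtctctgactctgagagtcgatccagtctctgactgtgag
Ifit1, chr19:34640639-34640938, plus strand: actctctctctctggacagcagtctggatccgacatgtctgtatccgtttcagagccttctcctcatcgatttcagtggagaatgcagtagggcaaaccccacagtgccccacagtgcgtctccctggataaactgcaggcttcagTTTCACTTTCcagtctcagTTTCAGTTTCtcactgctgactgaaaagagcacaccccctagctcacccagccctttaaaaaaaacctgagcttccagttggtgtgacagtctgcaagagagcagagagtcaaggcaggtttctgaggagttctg
Ifit3, chr19:34583279-34583578, plus strand: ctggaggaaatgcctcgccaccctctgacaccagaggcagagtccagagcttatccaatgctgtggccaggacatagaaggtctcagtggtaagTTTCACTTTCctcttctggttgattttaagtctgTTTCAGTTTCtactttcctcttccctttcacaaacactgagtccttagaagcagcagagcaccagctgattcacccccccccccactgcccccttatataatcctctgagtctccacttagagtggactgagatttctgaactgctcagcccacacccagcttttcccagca
Rsad2, chr12:26456403-26456702, minus strand: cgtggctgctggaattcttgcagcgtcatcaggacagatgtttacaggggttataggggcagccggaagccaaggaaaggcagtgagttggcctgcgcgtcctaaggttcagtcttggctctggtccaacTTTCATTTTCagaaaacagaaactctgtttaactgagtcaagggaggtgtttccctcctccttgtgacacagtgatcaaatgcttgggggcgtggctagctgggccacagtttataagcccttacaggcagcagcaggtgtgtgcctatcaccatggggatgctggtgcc
In Isg15 there were 3 matches on the strand of the gene, each overlapping the next, the first beginning at -78 from the start site. In Ifit1 and Ifit3, which lie in 1 cluster on chromosome 19, there were 2 each on the opposite strand, at -104 and -85 in Ifit1 and at -156 and -122 in Ifit3. Rsad2 had 1 at -120 on the opposite strand. In Ddx58 the match lay just after the start site.

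The 28 day hearts held the lowest level of every member. Values are RPKM, which divide reads by transcript length and library size, so levels can be set side by side between genes. All 10 members passed the filter on low values, a mean of at least 1 RPKM over the 6 libraries, which 11096 genes of the table met. Ifit3 was the highest on average at 27.1 RPKM and Ifi44 the lowest at 5.16 RPKM.

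**Figure D1:**
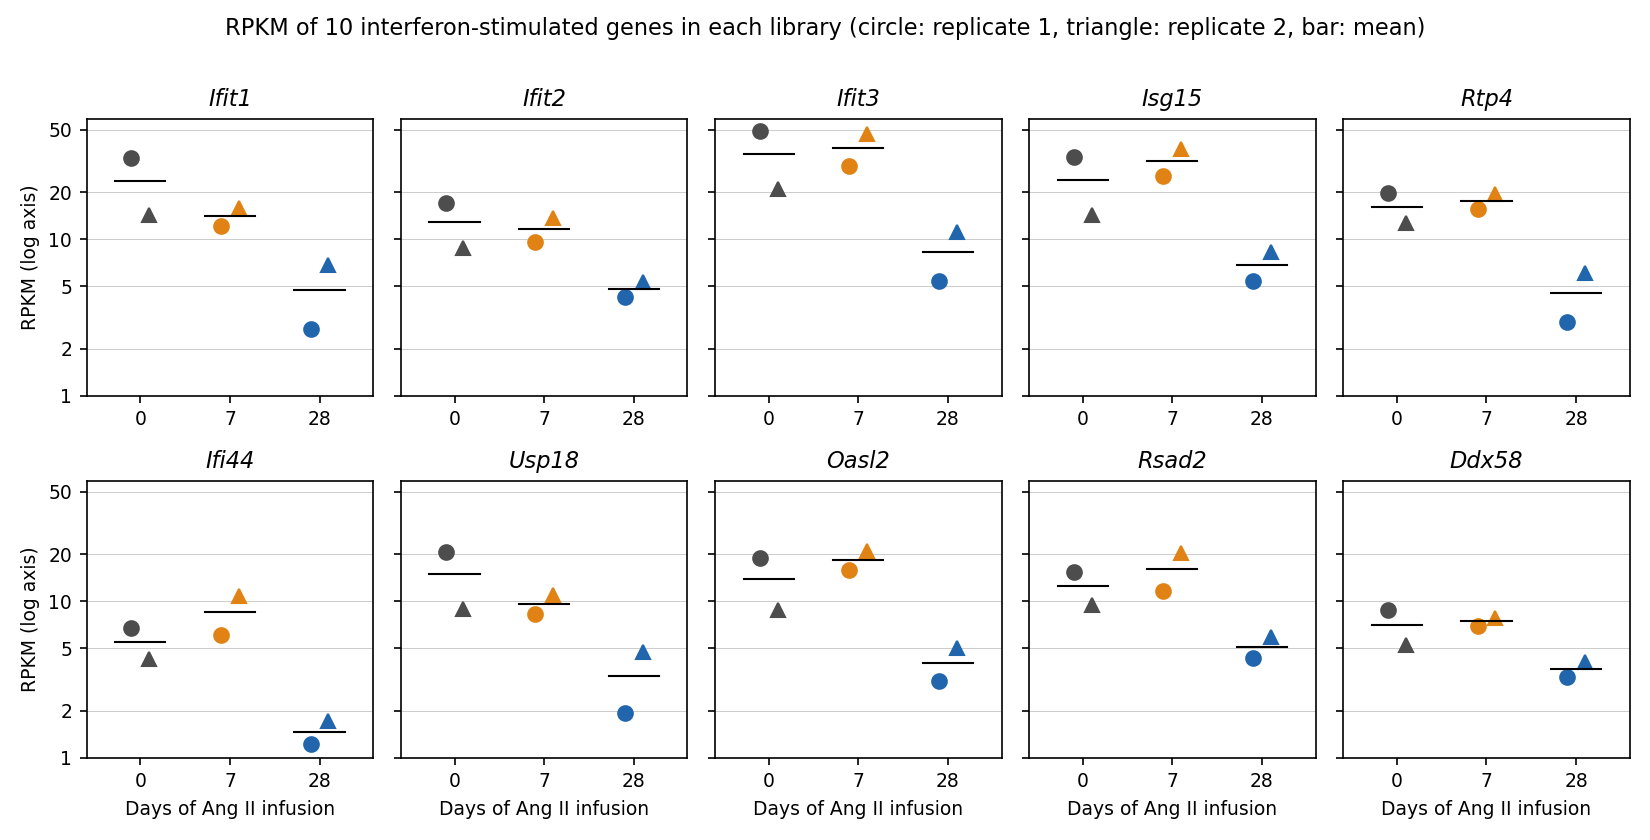
Level of each member in each library, in RPKM on a log axis, against days of Ang II infusion, with 1 point per library and a bar at the group mean. For each gene both 28 day points lie below all 4 other points, while control and 7 day points overlap.

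Ddx58 encodes RIG-I, a cytosolic sensor of viral RNA. It stood at 8.79 and 5.22 RPKM in the controls, at 6.99 and 7.87 RPKM after 7 days and at 3.30 and 4.09 RPKM after 28 days. Its difference at 28 days was the smallest of the set, and the 7 day libraries lay between the controls.

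The Ifit genes encode tetratricopeptide proteins that bind viral RNA or block its translation. Ifit1 stood at 32.8 and 14.2 RPKM in the controls, at 12.1 and 15.9 RPKM after 7 days and at 2.66 and 6.88 RPKM after 28 days. Ifit2 stood at 16.9 and 8.81 RPKM in the controls, at 9.60 and 13.6 RPKM after 7 days and at 4.29 and 5.37 RPKM after 28 days. Ifit3 stood at 48.9 and 20.8 RPKM in the controls, at 29.2 and 47.2 RPKM after 7 days and at 5.40 and 11.2 RPKM after 28 days. The 3 genes shared the shape, with a wide gap between the controls and both 28 day hearts below them. Ifit3 has a near-identical copy, listed here under the older symbol I830012O16Rik and known in RefSeq as Ifit3b, at 19.1 and 9.78 RPKM in the controls, 11.3 and 17.6 RPKM after 7 days and 2.02 and 4.30 RPKM after 28 days. No source used here states how reads were divided between the copies, so the level of Ifit3 is uncertain.

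Isg15 and Usp18 act on the same modification. Isg15 encodes a ubiquitin-like protein that is attached to other proteins, and Usp18 encodes the protease that removes it and also dampens signalling at IFNAR2. Isg15 stood at 33.4 and 14.2 RPKM in the controls, at 25.2 and 37.9 RPKM after 7 days and at 5.42 and 8.27 RPKM after 28 days. Usp18 stood at 20.7 and 8.92 RPKM in the controls, at 8.29 and 10.9 RPKM after 7 days and at 1.94 and 4.76 RPKM after 28 days. The 7 day mean of Isg15 lay above the control mean and that of Usp18 below it, both within the spread of the controls.

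Rsad2 encodes viperin, an enzyme that makes a chain-terminating nucleotide, and Oasl2 a member of the oligoadenylate synthetase family. Rsad2 stood at 15.5 and 9.51 RPKM in the controls, at 11.7 and 20.4 RPKM after 7 days and at 4.34 and 5.91 RPKM after 28 days. Oasl2 stood at 18.8 and 8.79 RPKM in the controls, at 15.7 and 21.0 RPKM after 7 days and at 3.10 and 4.99 RPKM after 28 days. Both were below all other libraries in the 28 day hearts.

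Rtp4 encodes a receptor transporter protein that is induced by interferon, and Ifi44 an interferon-induced protein. Rtp4 stood at 19.6 and 12.8 RPKM in the controls, at 15.5 and 19.4 RPKM after 7 days and at 2.98 and 6.11 RPKM after 28 days. Ifi44 stood at 6.73 and 4.30 RPKM in the controls, at 6.10 and 10.9 RPKM after 7 days and at 1.22 and 1.72 RPKM after 28 days. Ifi44 had the widest gap of the set between its highest 28 day library and its lowest control, which was 2.501 times as high, and the lowest 7 day library was 3.54 times as high.

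Members moved together between replicates of a group as well. In the controls, replicate 1 was above replicate 2 for 10 of 10 members, by a median of 0.98 on the log2(RPKM + 0.5) scale and between 0.59 and 1.21, whereas the median difference over all tested genes was -0.02 and 1.21% of them differed by as much as the least different member. After 7 days replicate 2 was above replicate 1 for 10 of 10, by a median of 0.44, and 23.2% of tested genes differed that way by as much as the least different member. After 28 days replicate 2 was again above for 10 of 10, by a median of 0.59, where that share was 20.3%. As a description over these 6 libraries, the lowest Pearson r between any pair of members was 0.838 and the median 0.960. Since members vary together, a count of them is not a count of separate tests.

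**Figure D2:**
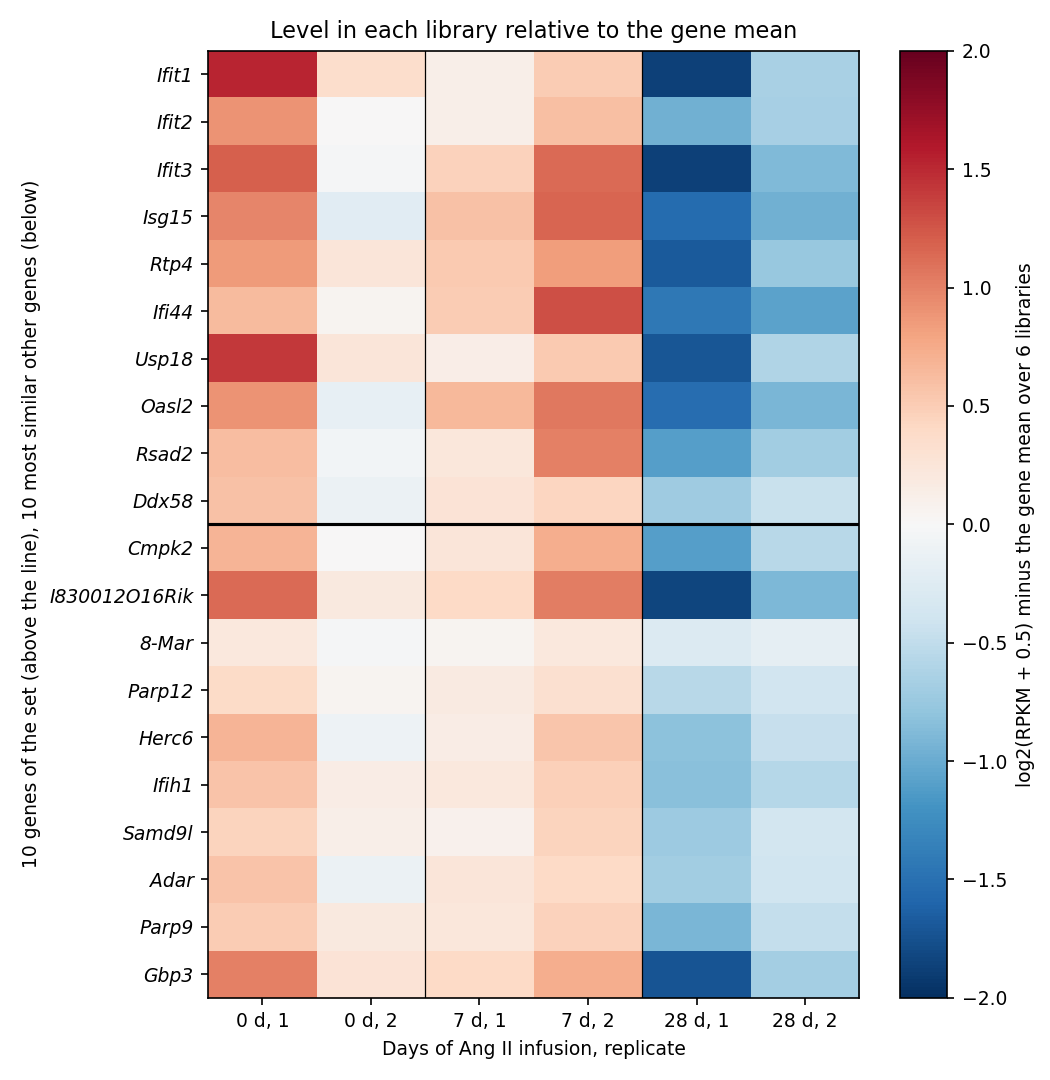
Level of each gene in each of the 6 libraries as log2(RPKM + 0.5) minus its mean over the libraries, for the 10 members above the line and for the 10 other tested genes whose pattern was most like theirs below it. Control replicate 1 and 7 day replicate 2 are the highest for most rows, and 28 day replicate 1 is the lowest for every row.

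The first comparison set 7 days of infusion against the controls, and 0 of 10 members passed. Differences were fitted in limma on log2(RPKM + 0.5) over all 11096 genes, with a call made where the p, adjusted by Benjamini-Hochberg over all of them, was under 0.05. Of the 10 members, 0 were called higher against 13.2% of all tested genes, and 0 lower against 2.27%; by an unadjusted limma p under 0.05 the counts were also 0, against 26.5% higher and 5.66% lower. Libraries of the groups overlapped for all 10, whereas 48.6% of all tested genes were higher and 16.1% lower in both 7 day libraries than in both controls. The median log2 change of the members was 0.17, beside 0.14 over all tested genes, with 7 members above 0 and 3 below. The largest were Ifi44 at 0.56 (SE 0.30, 95% interval -0.14 to 1.25, limma adjusted p = 0.247) and Ifit1 at -0.63 (SE 0.47, interval -1.73 to 0.48, limma adjusted p = 0.398). Every interval of the 10 included 0, and they reached from -1.73 (Ifit1) to 1.41 (Isg15). With 2 libraries a group, changes within a gene's interval at 7 days are not shown to be absent. The sign of Rtp4 and Ddx58, at 0.13 and 0.12, turned with either rescaling of the libraries.

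The second comparison set 28 days against the controls, and the set was lower throughout. The members' mean at 28 days was between 20.3% (Ifit1) and 52.7% (Ddx58) of their control mean. Both 28 day libraries lay below both controls for 10 of 10 members, an arrangement that 25.8% of all tested genes had. Of the 10 members, 3 fell by limma, against 1.54% of all tested genes called lower, and 0 rose, against 2.87% called higher. A fall past 1 on the log2 scale was fitted for 9 members and 1.18% of all tested genes. The median log2 change of the members was -1.61, beside 0.01 over all tested genes. With 2 libraries against 2, an exact two-sided permutation test of 1 gene cannot go below p = 0.333, so all calls rest on the variance that limma shares between genes.

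Rtp4 averaged 4.54 ± 2.21 RPKM at 28 days and 16.2 ± 4.84 RPKM in the controls (SD, n = 2 each), a log2 change of -1.77 (SE 0.32, limma adjusted p = 0.0313). Ifi44 averaged 1.47 ± 0.353 RPKM at 28 days and 5.52 ± 1.71 RPKM in the controls, a log2 change of -1.59 (SE 0.30, limma adjusted p = 0.0339). Ifit1 averaged 4.77 ± 2.99 RPKM at 28 days and 23.5 ± 13.2 RPKM in the controls, a log2 change of -2.20 (SE 0.47, limma adjusted p = 0.0486). These 3 genes fell, and they include the member with the largest change. The other 7 had log2 changes between -0.80 (Ddx58) and -1.98 (Usp18) with limma adjusted p between 0.0534 (Oasl2) and 0.0988 (Ddx58), and all 7 had an unadjusted p under 0.05, as 9.32% of all tested genes did in that direction. The calls leaned on single libraries. Without control replicate 1, and likewise without 28 day replicate 1, 0 of 10 passed, and without either 7 day library 1 of 10 did, while 3 of 10 passed without control replicate 2 or 28 day replicate 2.

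**Figure D3:**
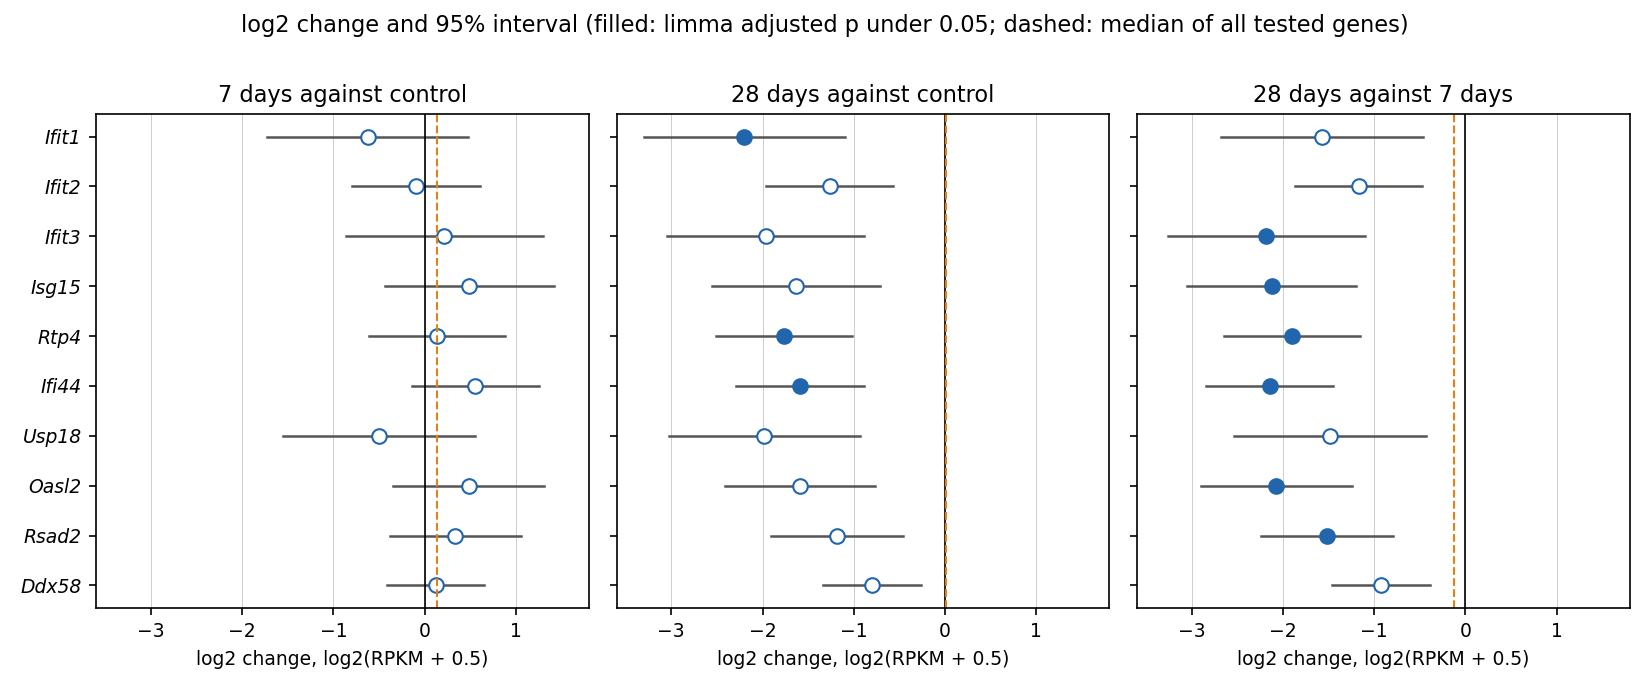
Change of each member on the log2(RPKM + 0.5) scale with its 95% interval, in the comparisons of 7 days against control, 28 days against control and 28 days against 7 days. Filled points passed (limma adjusted p under 0.05), 0, 3 and 6 of 10, and the dashed line is the median of all tested genes.

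The third comparison set 28 days against 7 days, and 6 of 10 members passed. Both 28 day libraries lay below both 7 day libraries for 10 of 10 members, as they did for 41.2% of all tested genes. Of the 10 members 6 fell, against 4.26% of all tested genes called lower, and 0 rose, against 0.406% called higher. A fall past 1 on the log2 scale was fitted for 9 members and 2.35% of all tested genes, and an unadjusted limma p under 0.05 for a lower level was found for 10 members and 19.1% of all tested genes. The median log2 change was -1.74, beside -0.12 over all tested genes. Both comparisons of 28 days share the same 28 day libraries, so they are not independent of each other.

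Ifi44 averaged 1.47 ± 0.353 RPKM at 28 days and 8.48 ± 3.38 RPKM at 7 days (SD, n = 2 each), a log2 change of -2.15 (SE 0.30, limma adjusted p = 0.0134). Isg15 averaged 6.85 ± 2.02 RPKM at 28 days and 31.5 ± 8.98 RPKM at 7 days, a log2 change of -2.12 (SE 0.39, limma adjusted p = 0.0321). Oasl2 and Rtp4 fell by 2.07 and 1.90 on the log2 scale (limma adjusted p = 0.0250 and 0.0239). Ifit3 fell by 2.18 and Rsad2 by 1.52 (limma adjusted p = 0.0459 and 0.0411). The other 4 members did not pass: Ddx58 at -0.92, Ifit2 at -1.17, Ifit1 at -1.57 and Usp18 at -1.48, with limma adjusted p between 0.0710 and 0.116. Of 10 members, 0 passed without 7 day replicate 2, when 27 genes of the whole table were called, and 1 passed without 7 day replicate 1 or without 28 day replicate 1. With median ratio scaling or quantile normalization 3 of 10 passed.

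The order of the groups was the same at its lower end for each member, with 28 days lowest. The upper end was not settled: the mean of the controls was above that of 7 days for Ifit1, Ifit2 and Usp18 and below it for the other 7 members, and control and 7 day libraries overlapped for each of the 10.

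The machinery that carries the interferon signal was read from a list of 18 genes, of which 17 were tested. At 28 days against the controls, 3 fell and 0 rose, against 1.54% and 2.87% of all tested genes. Irf9, the DNA-binding subunit of ISGF3, stood at 6.64 and 10.4 RPKM at 28 days, against 27.0 and 21.4 RPKM in the controls, a log2 change of -1.47 (limma adjusted p = 0.0172). The kinase Jak1 fell by 0.64 on the log2 scale (limma adjusted p = 0.0338). Stat2, a subunit of ISGF3, had a change of -1.45 (limma adjusted p = 0.0539), and Irf7, which amplifies the response, -1.22 (limma adjusted p = 0.128). The receptor chains Ifnar1 and Ifnar2 stood at -0.17 and 0.04 (limma adjusted p = 0.432 and 0.857), and the sign of Ifnar2 turned with quantile normalization. The list's median was -0.17. Without either control library 0 of these genes passed.

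At 7 days against the controls, 4 of 17 signalling genes rose, against 13.2% of all tested genes, and 0 fell. They were Socs3, a feedback inhibitor of cytokine receptors, at 1.31, Irf8, a factor of myeloid cells, at 0.78, Irf5 at 0.70 and the phosphatase Ptpn6, found mainly in blood cells, at 0.62 (limma adjusted p from 0.00652 for Socs3 to 0.0404 for Ptpn6). The count was 0 without 7 day replicate 2, 1 without either control library and 6 without either 28 day library. Irf8 and Ptpn6 lost the call in 7 other settings each and kept it in 7, and Irf5 lost it in 6 and kept it in 8. These genes were not tested with the filter of at least 5 RPKM. Irf9 was at -0.49 (limma adjusted p = 0.153) and Stat2 at -0.24 (limma adjusted p = 0.648). At 28 against 7 days 1 of 17 signalling genes fell, against 4.26% of all tested genes. It was Irf9 at -0.98 (limma adjusted p = 0.0475), a call that 11 of 15 other settings ended. The count was higher without 28 day replicate 2.

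Interferon transcripts themselves were scarce. Of 18 ligand genes in the table, 16 were listed at 0 in all 6 libraries, among them Ifnb1 and 11 Ifna genes. The highest single value was 0.0809 RPKM, for Ifng at 28 days, so no ligand reached the test and no direction can be read.

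Nucleic acid sensing was read from a list of sensors and other genes linked to sensing, such as adaptors, with 21 in the table and 18 of them tested. At 28 days against the controls 2 fell and 0 rose, against 1.54% and 2.87% of all tested genes. Those that fell were the RNA sensor Ifih1, which encodes MDA5, at -1.06 (limma adjusted p = 0.0313) and the helicase Ddx60 at -1.67 (limma adjusted p = 0.0338). Dhx58, which encodes LGP2, a relative of RIG-I, stood at 0.610 and 0.788 RPKM at 28 days, against 4.26 and 1.46 RPKM in the controls, or -1.35 on the log2 scale with a limma adjusted p = 0.0956, short of a call. At 28 against 7 days 5 fell and 0 rose, against 4.26% and 0.406% of all tested genes. Those that fell were Zbp1 at -2.23, Dhx58 at -2.18, Ifih1 at -1.05, Tmem173, which encodes STING, at -0.80, and the adaptor Myd88 at -0.58 (limma adjusted p from 0.0218 to 0.0357). At 7 days against the controls 3 of 18 rose, against 13.2% of all tested genes, Tmem173 at 1.003, Myd88 at 0.62 and Traf3 at 0.54 (limma adjusted p = 0.00745, 0.0121 and 0.0465). Calls were lost without single libraries. At 28 days against the controls 0 passed without control replicate 1, either 7 day library or 28 day replicate 1, and at 28 against 7 days 0 passed without either 7 day library or without 28 day replicate 1. At 7 days against the controls 0 passed without control replicate 2 or without either 7 day library.

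A wider list of interferon-stimulated genes outside the set, 60 in the table and 56 tested, was set beside the members. It shares genes with the signalling and sensing lists, among them Irf7, Dhx58, Ifih1 and Zbp1, so counts of the lists are not separate. At 28 days against the controls 13 fell, against 1.54% of all tested genes, 0 rose, and the median log2 change was -0.89. Both 28 day libraries lay below both controls for 43 of 56, against 25.8% of all tested genes, and 52 of 56 had a change below 0. Ifitm1, Ifitm2, Ifi205 and Gm14446, named after their values were seen, had changes of 0.23, 0.07, 0.04 and 0.01. The largest changes among those that passed included I830012O16Rik at -2.03, Mx2, a dynamin-like antiviral GTPase, at -1.64, Trim34a at -1.26, Uba7, the enzyme that activates Isg15, at -1.21, and Parp14 at -1.17 (limma adjusted p from 0.0356 to 0.0483). Mx1 and Oas1a, standard markers of the response, stood at -0.95 and -1.04 (limma adjusted p = 0.151 and 0.137). Oas1a reads may be shared with close copies such as Oas1g. Without control replicate 1, 0 of the 56 passed, 6 without control replicate 2, 3 without either 7 day library or without 28 day replicate 1, and 16 without 28 day replicate 2.

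At 28 against 7 days 22 of the 56 fell, against 4.26% of all tested genes, and 0 rose, with a median of -1.04. Zbp1 and Dhx58 led, followed by Ifi27l2a at -2.07 (limma adjusted p = 0.00264), I830012O16Rik at -2.07 (limma adjusted p = 0.0353), Oas1a at -1.93 (limma adjusted p = 0.0274) and Bst2, which encodes the virus-tethering protein tetherin, at -1.78 (limma adjusted p = 0.0322). Ifi27l2a stood at 51.5 and 49.0 RPKM at 28 days, against 192 and 236 RPKM at 7 days, and passed under all 15 other settings. Mx1 fell by 1.70 (limma adjusted p = 0.0353), with 0.271 and 0.755 RPKM at 28 days against 2.18 and 3.33 RPKM at 7 days. Its mean reached the filter on low values only through the 7 day libraries, so this fall is a description only. The count was 1 without 7 day replicate 2, 3 without 7 day replicate 1, 5 without 28 day replicate 1 and 32 without 28 day replicate 2. At 7 days against the controls 4 of the 56 rose, against 13.2% of all tested genes, and 0 fell: Ifi30, a lysosomal thiol reductase, at 0.99, Ifi27l2a at 0.98, Pyhin1 at 0.82 and Ifitm2 at 0.60 (limma adjusted p from 0.00652 to 0.0487). The count was lower without control replicate 2 or either 7 day library and higher without either 28 day library. Ifi30 lost the call in 8 and Ifitm2 in 7 of the 15 other settings. Pyhin1, not tested with the filter of at least 5 RPKM, lost it in 7 and kept it in 7. Pyhin1 stood at 1.18 and 0.830 RPKM in the controls, 1.98 and 2.31 RPKM at 7 days and 0.410 and 0.497 RPKM at 28 days. Its mean reached the filter of at least 1 RPKM only through the 7 day libraries. Its place in the counts that involve 7 days is therefore not support for a rise or fall. The conjugation pathway of Isg15, a list of 6 genes that includes Isg15 and Usp18, had 6 of 6 lower in both 28 day libraries than in both controls, against 25.8% of all tested genes. Its other genes were counted above as well, Uba7, Ube2l6 and Herc6 among the 56 and Trim25 in the sensing list. Of these, Uba7 was called lower against the controls, and Isg15 and Ube2l6, the conjugating enzyme, were called lower at 28 against 7 days.

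Targets of the type II interferon pathway were listed separately, 25 genes with 22 tested. The list was not shown to respond to type II interferon alone, and Gbp3 in it was among the 10 genes most like the members (Pearson r = 0.984). At 28 days against the controls 9 fell and 0 rose, against 1.54% and 2.87% of all tested genes, with a median of -1.23. The GTPases Iigp1, Irgm2, Gbp3, Gbp5, Gbp4 and Irgm1 changed by -2.49, -1.996, -1.85, -1.84, -1.79 and -1.62 (limma adjusted p from 0.0115 to 0.0402). At 7 days 1 fell and 4 rose against the controls, as 2.27% and 13.2% of all tested genes did. Iigp1 changed by -1.55 (limma adjusted p = 0.0202), with 26.0 and 29.4 RPKM at 7 days, against 70.5 and 94.6 RPKM in the controls. Cxcl10, a chemokine, rose by 1.49 at 7 days, and the class II genes H2-Eb1, H2-Ab1 and H2-Aa rose by 0.87, 0.83 and 0.79 (limma adjusted p from 0.00731 to 0.0133). Cxcl10 stood at 0.667 and 0.559 RPKM in the controls, 2.22 and 3.08 RPKM at 7 days and 0.170 and 0.563 RPKM at 28 days. It met the filter on low values only through the 7 day libraries. Its changes from and to 7 days, counted here, are therefore a description and not support for a rise or fall. At 28 against 7 days 4 fell, against 4.26% of all tested genes. They were Cxcl10 at -1.89, Gbp3 at -1.77, Ifi47 at -1.49 and Gbp2 at -1.17 (limma adjusted p from 0.0140 to 0.0418). Whether this list and the 10 members differed was not tested. Without either control library 0 type II targets passed at 28 days against the controls or at 7 days. In the comparison of 28 days with the controls 1 passed without either 7 day library, 4 without 28 day replicate 1 and 12 without 28 day replicate 2. At 7 days 1 passed without 7 day replicate 2 and 10 without either 28 day library. In that of 28 with 7 days 0 passed without either 7 day library, 1 without 28 day replicate 1 and 17 without 28 day replicate 2.

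**Figure D4:**
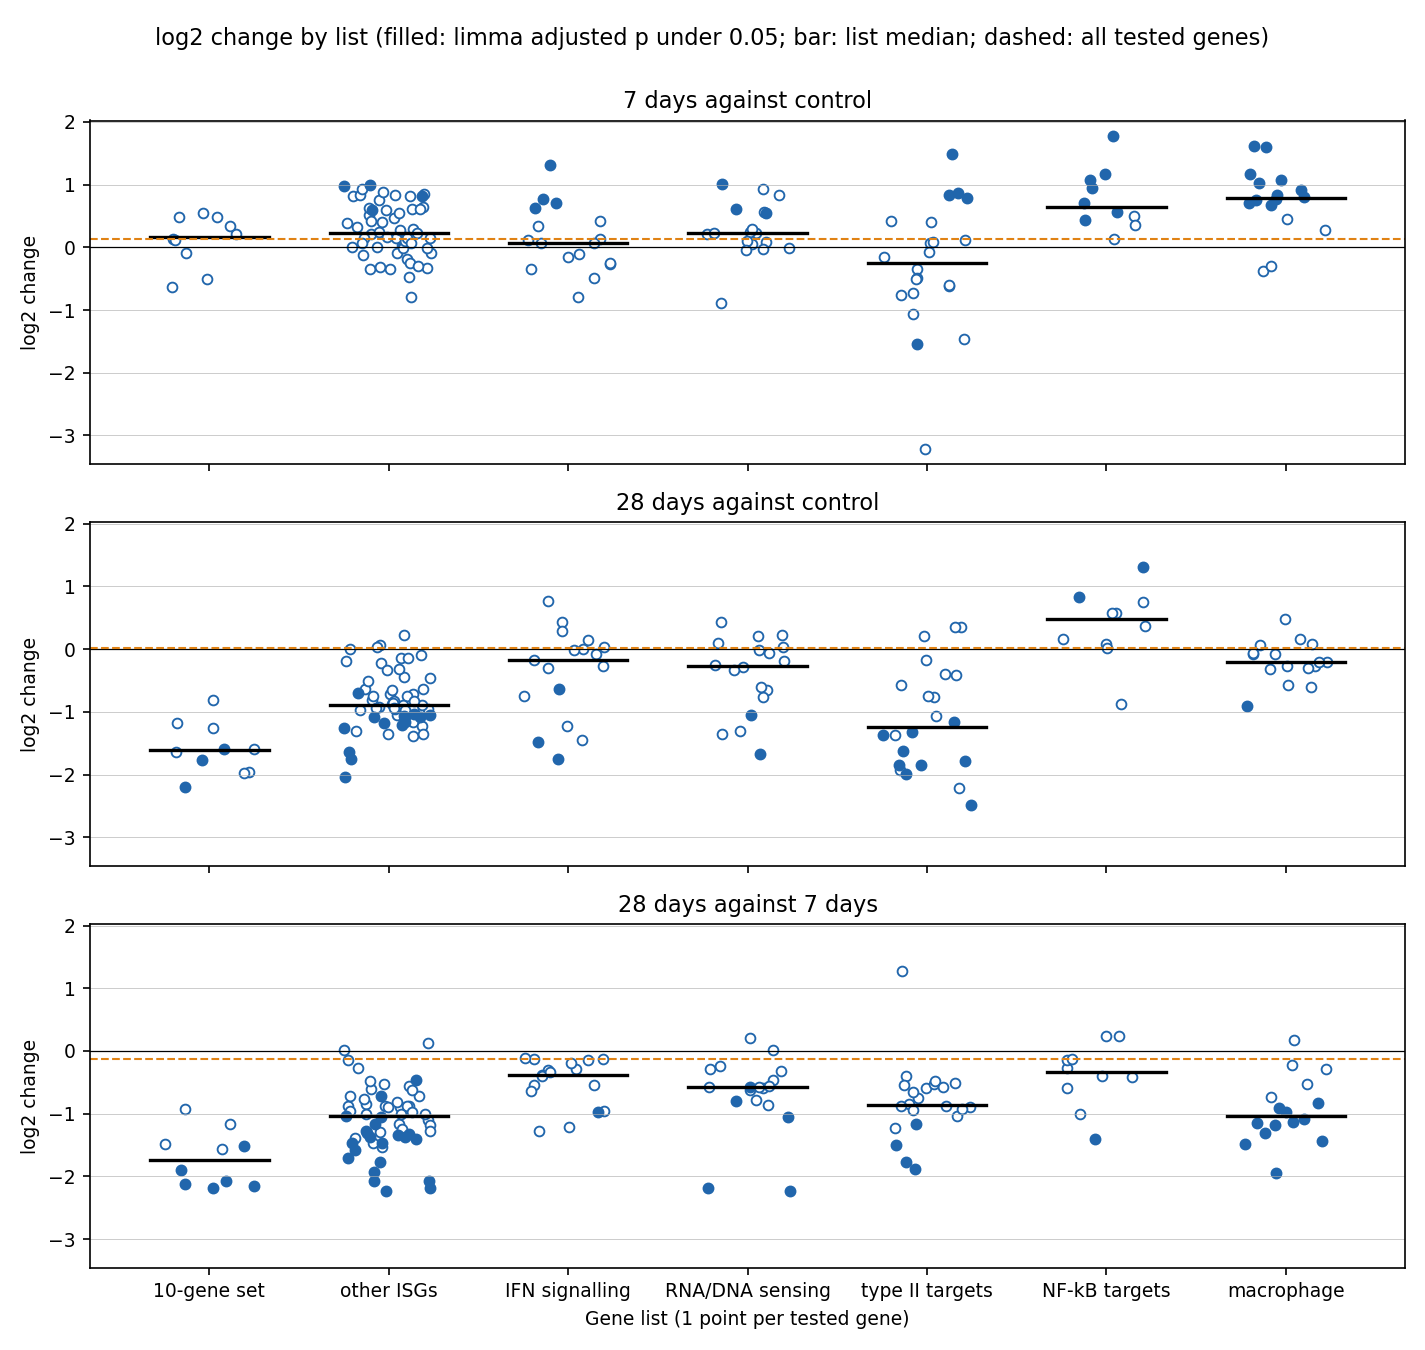
Change of each tested gene on the log2(RPKM + 0.5) scale, by gene list and comparison, with filled points for limma adjusted p under 0.05, a bar at the list median and a dashed line at the median of all tested genes. In the 28 day comparisons the medians of the 10 members lie at -1.61 and -1.74, and the median of NF-kB targets lies above 0 against the controls.

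NF-kB targets, another inflammatory program, were set beside these lists. Of 10 tested, 7 were called higher at 7 days and 2 at 28 days against the controls, against 13.2% and 2.87% of all tested genes. In either comparison 0 were called lower, against 2.27% and 1.54%, and the medians were 0.64 and 0.47. At 28 days 1 of the 10, Cxcl1, had a change below 0, at -0.87 (limma adjusted p = 0.214). Both its 28 day libraries lay below both controls, as for 25.8% of all tested genes. Between 28 and 7 days the median was -0.34 and 8 of 10 were below 0. Of the 10, 6 lay lower in both 28 day libraries than in both 7 day libraries, against 41.2% of all tested genes. Ccl2 alone was called lower, 1 of 10 against 4.26%, and 0 were called higher, against 0.406%. The difference between this list and the members was not tested.

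Across all tested genes outside the set, the patterns most like the members' mean profile over the 6 libraries belonged to Cmpk2 (Pearson r = 0.998), I830012O16Rik (0.996), an entry whose symbol had been turned into a date in the table and reads 8-Mar (0.993), Parp12 (0.992), Herc6 (0.991), Ifih1 (0.991), Samd9l (0.989), Adar (0.988), Parp9 (0.986) and Gbp3 (0.984). The choice rests on 6 libraries and moved with them, since 2 of the 10 stayed among the closest 10 without control replicate 1, 3 without 7 day replicate 1 or without 28 day replicate 2, 4 without 7 day replicate 2 or without 28 day replicate 1, and 5 after median ratio scaling. Apart from the entry 8-Mar, these genes were already in the interferon lists above. Cmpk2, which encodes a mitochondrial nucleotide kinase and is the neighbour of Rsad2 in the genome, stood at 8.19 and 4.94 RPKM in the controls, at 5.95 and 8.53 RPKM after 7 days and at 2.04 and 3.21 RPKM after 28 days.

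Markers of several cell types moved with the groups. The summed level of 16 macrophage markers was 464 and 451 RPKM in the controls, 693 and 786 RPKM after 7 days and 393 and 308 RPKM after 28 days, so the 28 day sums were the lowest. The median marker did not follow the sum, at 5.07 and 5.56 RPKM in the controls, 8.53 and 9.47 RPKM after 7 days and 5.79 and 3.84 RPKM after 28 days. Of these 16, 12 rose at 7 days against the controls and 11 fell at 28 against 7 days, as 13.2% and 4.26% of all tested genes did. Ccr2, in both counts, met the filter on low values only through the 7 day libraries. At 28 days against the controls 1 fell, against 1.54% of all tested genes. It was Fcgr1, which is itself interferon-induced. The summed level of 7 neutrophil markers was 1.97 and 1.55 RPKM in the controls, 6.40 and 12.9 RPKM after 7 days and 33.3 and 125 RPKM after 28 days, carried by S100a8 and S100a9. All 16 markers of T, NK and B cells had a mean under 1 RPKM, with sums between 2.23 and 4.56 RPKM. Of 10 dendritic cell markers, Siglech, which defines plasmacytoid cells, reached at most 0.118 RPKM, and Bst2, an interferon-stimulated gene as well, made up most of a sum of 111 and 77.6 RPKM in the controls, 98.7 and 146 RPKM after 7 days and 37.8 and 56.9 RPKM after 28 days. Cardiomyocyte markers summed to between 35458 and 47506 RPKM over the 6 libraries and matched the labelled tissue. Red blood cell markers, 5 in the table, summed to 499 and 129 RPKM in the controls, 392 and 305 RPKM after 7 days and 203 and 155 RPKM after 28 days, so control replicate 1 was above control replicate 2 there too, but both 28 day hearts were above control replicate 2. The 8 fibroblast markers summed to 451 and 455 RPKM in the controls, 743 and 760 RPKM after 7 days and 518 and 405 RPKM after 28 days. Of them 5 rose at 7 days against the controls, against 13.2% of all tested genes. At 28 against 7 days 4 fell, against 4.26%, and 8 of 8 were below 0, with a median log2 change of -0.60. The 10 endothelial markers summed to 303 and 289 RPKM in the controls, 377 and 443 RPKM after 7 days and 293 and 372 RPKM after 28 days. Against the controls 3 were called higher at 7 days and 1 at 28 days, as 13.2% and 2.87% of all tested genes were. Between 28 and 7 days 0 were called, and 3 had an unadjusted limma p under 0.05 for a lower level, against 19.1% of all tested genes. The part of these cell types in the changes of the members was not tested.

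**Figure D5:**
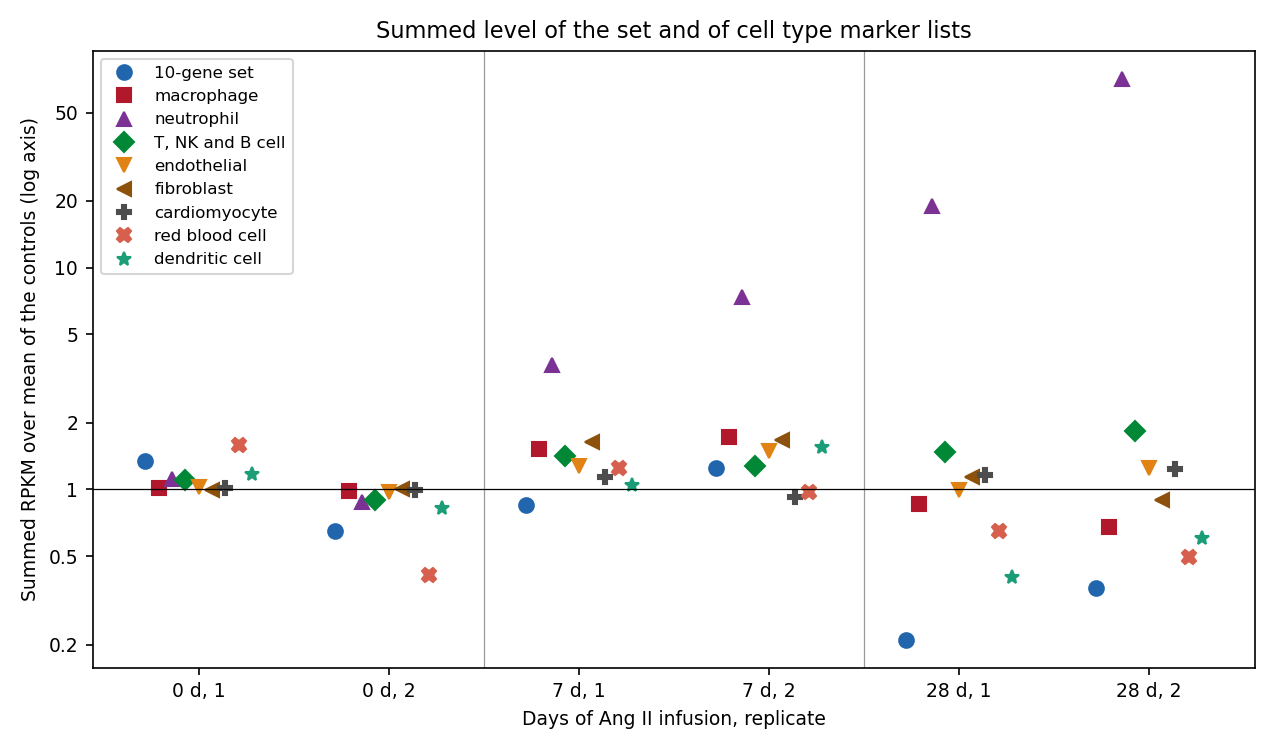
Summed RPKM of the 10 members and of 8 lists of cell type markers in each library, divided by the mean of the controls, on a log axis. At 28 days the members lie lowest and neutrophil markers highest. Red blood cell markers share the gap between the control libraries that the members show. The dendritic cell sum shares it too, but most of that sum is Bst2, itself an interferon-stimulated gene.

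Libraries were similar in depth. Relative to control replicate 1, depth estimated from low values was 1.05 in control replicate 2, 1.17 and 1.14 at 7 days and 0.985 and 0.89 at 28 days, and between 15636 and 16036 genes lay above 0 RPKM. Read totals were not at hand, so no counting interval can be set on a single value.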

How the data were processed

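RNA from whole hearts of 6 libraries was sequenced on an Illumina instrument, per the labels' protocols. The authors deposited 1 table of RPKM values for 22556 genes. The submitters' processing notes name TopHat2 2.0.12, Bowtie 0.12.9, HTSeq, DESeq2 and the builds mm8 and mm9, without their roles. Which annotation and program gave the RPKM is not given in the sources used here, nor are read totals.

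The deposited RPKM values were taken as log2(RPKM + 0.5), which understates changes of low genes, and genes with a mean of at least 1 RPKM, 11096 in all, were fitted over the 6 libraries in limma 3.58.1 (R 4.3.3) with a mean-variance trend. P-values were adjusted by Benjamini-Hochberg over all tested genes and called under 0.05. The method was tested on simulated data drawn with independent noise for each gene. That test does not cover genes that vary together, as the members do. Groups came from the sample titles. Replicate numbers were not taken to pair the libraries, since the labels do not say that they do.

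The members and lists were chosen with earlier results of these data known. All members were named. From the lists of signalling, sensing, other interferon-stimulated and type II genes, all called genes were named, or the 6 largest changes where more were called. Stat2, Irf9, Irf7, Ifnar1, Ifnar2, Mx1, Oas1a, Ifih1 and Dhx58 were always named, as were the 10 genes most like the members. An item that this rule names is not reported here. Other genes given with values, such as I830012O16Rik among the members and the cell markers, were named after their values were seen. The alternatives were 2 other pseudocounts, 2 other filters, 2 rescalings, no trend, fits of 2 groups alone, a replicate block and leaving out each library. Older symbols of list genes were matched through RefSeq synonyms for 11 genes.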

Additional observations from a re-analysis of the deposited data

Results flagged for a closer look

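For 6 members the change at 28 days differed from the change at 7 days, both taken against the controls, as tested by limma in the comparison of 28 days with 7 days, in which the controls cancel. On the log2 scale the differences were -2.15 for Ifi44, -2.18 for Ifit3, -2.12 for Isg15, -2.07 for Oasl2, -1.52 for Rsad2 and -1.90 for Rtp4. For each of these genes both 28 day libraries lay below both 7 day libraries. Groups of 2 libraries are too small for a test of single outlying samples.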

How the results depend on the processing

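All 10 members kept a negative change in both 28 day comparisons under all 15 other settings, but the number that passed did not hold. At 28 days against the controls 3 members passed, against 0 with no filter on low values, 1 with only the 2 groups compared, 1 with a replicate block and 0 to 3 when 1 library was left out. At 28 against 7 days 6 passed, against 0 with no filter, 3 with median ratio scaling, 3 with quantile normalization, 3 with a replicate block and 0 to 8 when 1 library was left out. At 7 days 0 passed under every setting. The members' median change ranged over left-out libraries from -0.20 to 0.57 at 7 days against the controls, where it was negative without control replicate 2 or 7 day replicate 2, from -2.09 to -1.18 at 28 days against the controls and from -2.26 to -1.38 at 28 against 7 days. Over all genes, 489 were called at 28 days against the controls, 61 with no filter, 234 with only the 2 groups compared and 33 to 384 without 1 library. At 28 against 7 days 518 were called, 264 with no filter, 295 with a mean of at least 5 RPKM, 281 with median ratio scaling, 265 with quantile normalization, 287 with only the 2 groups compared and 27 to 689 without 1 library. At 7 days 1713 were called and 392 to 2252 without 1 library. The higher and lower calls at 7 days, 1461 and 252, became 710 and 450 with median ratio scaling and 701 and 527 with quantile normalization, and those at 28 against 7 days, 45 and 473, became 64 and 217 and 55 and 210. Changes at 7 days that turned negative were Rtp4 at -0.033 and -0.035, Ddx58 at -0.039 and -0.054, Ifnar1 at -0.019 and -0.050 and Irf7 at -0.10 and -0.11 with median ratio and quantile scaling, and at 28 days against the controls Ifnar2 at -0.014 with quantile normalization. Over left-out libraries the 7 day changes that turned sign ranged from -0.55 to 0.36 for Ifit2, -0.39 to 0.82 for Ifit3, -0.11 to 1.09 for Isg15, -0.17 to 0.43 for Rtp4, -1.08 to 0.088 for Usp18, -0.045 to 1.01 for Oasl2, -0.051 to 0.72 for Rsad2, -0.23 to 0.47 for Ddx58, -0.22 to 0.20 for Ifih1, -0.64 to 0.15 for Stat2 and -0.34 to 0.47 for Irf7, and for Ifnar2 at 28 days against the controls from -0.041 to 0.13. The cause was not tested.

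The correlation of replicate 1 minus replicate 2 over genes was 0.149 between 7 days and control, -0.0193 between 28 days and control and -0.0139 between 28 and 7 days, so the replicate numbers were not taken to pair libraries. With 2 libraries a group and no read totals, the spread between libraries limits every comparison.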
